A study of Mus musculus with 9 samples.

Results

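Mitosis genes are here a set of 46 genes whose symbols name a protein of chromosome segregation or cell division, chosen by symbol from the 54232 of the deposited table. The set does not hold all such genes, and others are counted further below. They were split by function into 9 classes: CDK1, cyclin B and G2/M control (6 genes), polo, Aurora A and NIMA kinases (3), the chromosomal passenger complex (3), the spindle checkpoint (4), anaphase promotion and separase control (4), centromere and kinetochore (7), spindle motors and microtubule proteins (7), central spindle and cytokinesis (6), and condensin, topoisomerase and chromosome surface (6). All 46 passed the filter on low counts that left 17602 genes.

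The libraries came from primary neural stem cells of mouse embryos, labelled as subventricular zone of the brain and kept on a laminin coat in medium containing FGF and EGF. Total RNA was prepared 3 days after the cells were treated with a short hairpin RNA, a transcript that the cell processes into a small RNA against its target. The control group received a non-targeting hairpin (shNT), and the other groups received sh900 or sh902, both directed against Phf2, a gene of the KDM7 family of histone demethylases. How the hairpins were delivered and whether libraries of a group came from separate cultures or animals is not given in the sources used here, so a p-value here reflects only how these libraries vary, which may be technical in part. Each group held 3 RNA-seq libraries: 1 with no date in its title, 1 dated 30 August and 1 dated 3 September. The labels do not say what a date marks. The comparisons asked how the mitosis genes differ when Phf2 is lowered, whether that holds at each date label, and whether the hairpins differ.

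Totals ran from 23212472 to 32392496 estimated counts per library, and levels are given as CPM, counts scaled to a common library size after TMM normalization. Phf2 stood at 56.3, 52.8 and 48.7 CPM in the controls (undated, 30 August, 3 September) and at 14.9 to 28.1 CPM in the 6 hairpin libraries, with no overlap (two-sided exact permutation test, p = 0.0119 over 84 splits). All 10 neural stem cell markers checked passed the filter, with a summed level of 6080 to 13240 CPM. Of 8 microglia markers 1 passed it and 2, C1qa and C1qb, were at 0 in all 9 libraries. The 8 summed to 0.654 to 3.47 CPM. Astrocyte markers summed above the stem cell markers in the undated control (8624 against 6870 CPM). They did so on 3 September in the control (14630 against 6080) and with sh900 (8199 against 7846), but not in the other libraries.

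Dividing cells make most mitosis transcripts late in the cell cycle, in G2 and M phase, so in a tissue or culture their RNA is a widely used sign of cycling cells. MuvB protein complexes, with the pocket proteins p107 or p130 in resting cells and with B-Myb and then FoxM1 in cycling cells, act at promoters of this class through an element called the CHR, often beside CCAAT boxes bound by NF-Y, while genes of DNA replication are typical targets of E2F factors. In the subventricular zone, stem cells move between rest and division, and division falls as they become neurons or glia. In bulk RNA, fewer cells in division and less of the transcript per cell cannot be told apart.

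Promoter sequence is a property the choice by symbol did not use. The RefSeq promoter table (GRCm38.p6; 250 bases before to 50 after each start) held 38 of the 46 genes; the others were Cdc25c, Foxm1, Aurkb, Incenp, Tpx2, Dlgap5, Kif20a and Smc4. The CHR letters TTTGAA, on either strand, were in the promoter window of 27 of 38 mitosis genes (71.1%) and of 20.2% of all 27025 genes in the table. CCAAT, on either strand, was also in 27 of 38 (71.1%), against 41.1% of all genes, and both together were in 22 of 38 (57.9%), against 7.97%. The E2F-type letters GCGGGAA, on either strand, were in 1 of 38 (2.63%), against 5.29% of all genes and 47.1% of 34 DNA replication genes. Each motif was searched on its own, and matches of different motifs could overlap. A match describes the letters in this window only.

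The following stretches are the 120 bases just before the start, 5′ to 3′ on the strand of the gene, with matches in capitals (TTTGAA or its reverse complement TTCAAA for the CHR, CCAAT or ATTGG for the CCAAT box). The first 7 are shown because a CHR match lies within them close to a CCAAT box. Ccnb1 and Cdc25b are shown because they have CCAAT boxes and no match to TTTGAA on either strand. Other forms of the element were not searched, so the lack of a match does not show that it is absent. They lie at chr10:69352913-69353032 (Cdk1, minus strand), chr11:99024190-99024309 (Top2a, minus), chr4:118437344-118437463 (Cdc20, minus), chr2:164769809-164769928 (Ube2c, plus), chr19:37376262-37376381 (Kif11, plus), chr7:80294356-80294475 (Prc1, plus), chr15:102296173-102296292 (Espl1, plus), chr13:100786487-100786606 (Ccnb1, minus) and chr2:131186828-131186947 (Cdc25b, plus).
Cdk1: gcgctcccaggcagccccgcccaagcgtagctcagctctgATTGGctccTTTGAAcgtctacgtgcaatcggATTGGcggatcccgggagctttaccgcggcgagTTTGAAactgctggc
Top2a: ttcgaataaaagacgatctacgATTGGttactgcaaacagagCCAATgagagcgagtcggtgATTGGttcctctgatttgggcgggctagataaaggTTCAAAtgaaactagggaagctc
Cdc20: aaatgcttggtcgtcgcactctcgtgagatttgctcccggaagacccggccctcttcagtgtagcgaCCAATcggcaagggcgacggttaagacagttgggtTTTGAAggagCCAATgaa
Ube2c: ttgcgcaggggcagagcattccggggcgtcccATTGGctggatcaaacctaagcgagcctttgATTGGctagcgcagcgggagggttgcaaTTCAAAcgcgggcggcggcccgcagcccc
Kif11: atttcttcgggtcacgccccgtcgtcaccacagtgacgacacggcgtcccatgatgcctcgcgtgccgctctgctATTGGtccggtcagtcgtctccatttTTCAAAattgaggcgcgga
Prc1: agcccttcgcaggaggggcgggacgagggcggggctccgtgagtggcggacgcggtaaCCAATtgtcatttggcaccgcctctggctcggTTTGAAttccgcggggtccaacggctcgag
Espl1: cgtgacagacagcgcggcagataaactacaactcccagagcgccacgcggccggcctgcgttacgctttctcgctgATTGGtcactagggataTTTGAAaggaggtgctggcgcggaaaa
Ccnb1: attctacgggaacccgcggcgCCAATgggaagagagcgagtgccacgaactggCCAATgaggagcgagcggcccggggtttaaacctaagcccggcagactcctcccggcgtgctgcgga
Cdc25b: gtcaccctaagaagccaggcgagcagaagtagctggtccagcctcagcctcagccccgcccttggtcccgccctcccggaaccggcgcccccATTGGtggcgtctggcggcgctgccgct

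**Figure D1:**
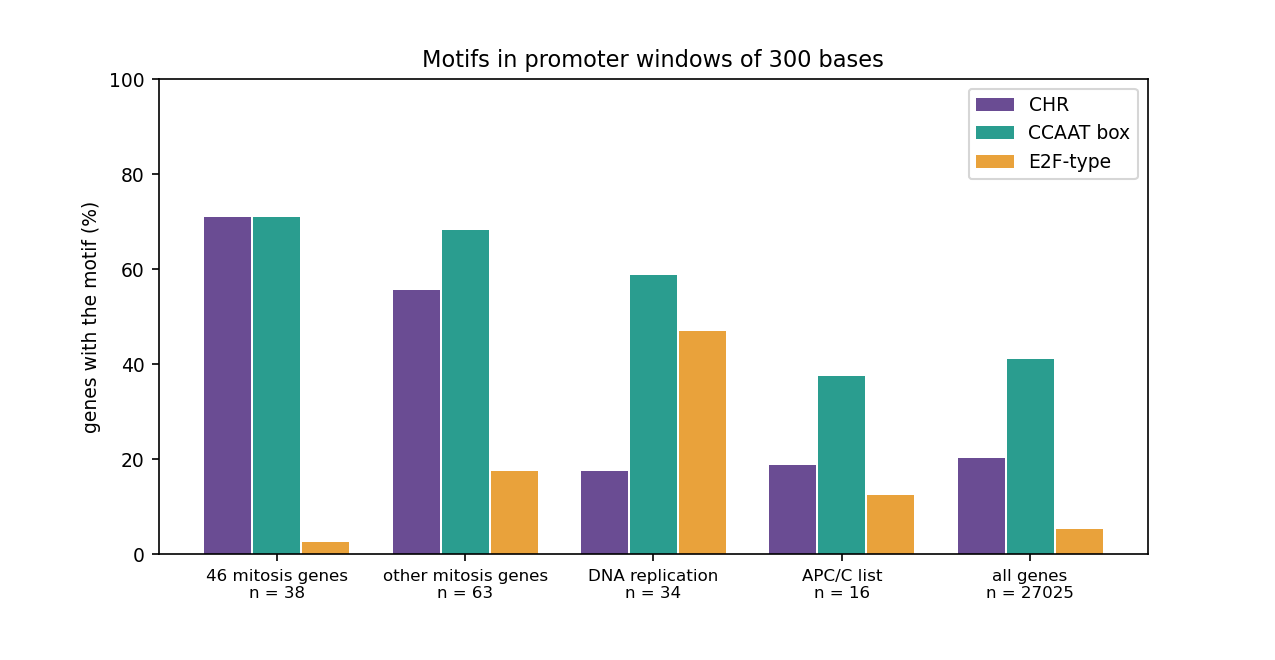
Share of genes (%) whose promoter window holds each motif, for the 46 mitosis genes and 3 other lists with the number of genes that have a window (n), and for all genes in the table. The CHR bar of the mitosis genes stands at 71.1% and that of DNA replication genes at 17.6%.

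The control libraries set the outer limits of every mitosis gene. In all 46 the control of 30 August was the highest of 9 libraries and the control of 3 September the lowest, an arrangement held by 4.37% of the 17602 genes tested. Summed over the 46 genes, the controls stood at 2531 CPM (undated), 6947 (30 August) and 552.8 (3 September), so the 30 August control held 12.6 times as much as that of 3 September. The hairpin libraries lay inside these limits, with sh900 at 3366, 1939 and 2584 CPM and sh902 at 3837, 2280 and 3554 in the same order of labels. By that arrangement all 6 hairpin libraries fell between the 2 dated controls in 46 of 46 genes, against 4.74% of all genes. The log2 range over the 3 controls had a median of 3.83 over the mitosis genes, a 14.2-fold spread, and that over the 6 hairpin libraries a median of 0.97, or 1.97-fold. The control range was the wider one in 46 of 46 genes, which the same arrangement fixes, against 29.1% of all genes, whose medians were 0.71 and 1.04. A wide control range was not particular to mitosis genes. Its median was 4.66 for oligodendrocyte lineage, 4.36 for fibroblast and pericyte and 4.10 for astrocyte markers. Their medians over the hairpin libraries were 3.97, 3.37 and 3.85. The remaining lists described below had lower control medians, with 3.38 for other mitosis genes and 2.66 for DNA replication genes.

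**Figure D2:**
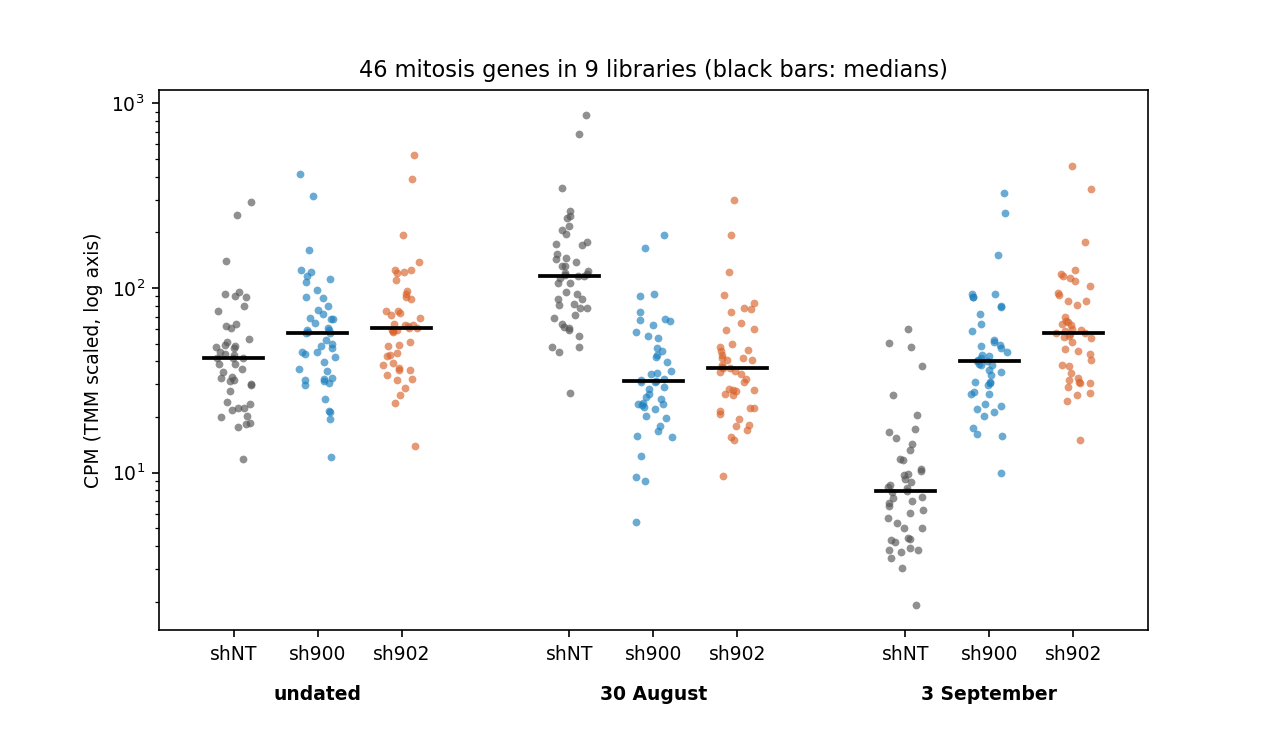
Levels of the 46 mitosis genes (points, CPM on a log axis) in each of 9 libraries, arranged by date label, with the median of each library as a black bar. The summed level is highest in the 30 August control (6947 CPM) and lowest in the 3 September control (552.8 CPM), and the hairpin libraries lie between them.

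Markers of other cells moved with the controls as well. The summed level of 10 astrocyte markers was 8624, 1466 and 14630 CPM over the controls (undated, 30 August, 3 September). That is the reverse of the order of the mitosis genes, and Apoe gave the most in each control. The sum was 1999, 1112 and 8199 CPM with sh900 and 1918, 1126 and 5226 with sh902, below the same-label control each time. Among the 10, the number above that control was 1, 4 and 2 with sh900 and 1, 3 and 1 with sh902. Of the 10 neuroblast and neuron markers 9 passed the filter. The sum of the 10 was 1229, 696 and 1982 CPM in those controls, and Map2 gave the most to it. With sh900 it was 728, 630 and 1114 CPM and with sh902 649, 482 and 893, again below the same-label control each time. Among the 9 that passed, the number above that control was 2, 3 and 1 with sh900 and 1, 3 and 1 with sh902. Neural stem cell markers summed to 6080 to 7116 CPM in the controls and 6671 to 13240 CPM with a hairpin, a sum to which Vim gave the most. Against the same-label control their median log2 ratio was -0.47, 0.09 and 0.05 with sh900 and -0.40, -0.14 and -0.16 with sh902. Pax6, Slc1a3, Hes5 and Msi1 were below that control in all 6 hairpin libraries. Nes and Vim were above it in all 6, and the other markers of the list went both ways. The sums of oligodendrocyte lineage markers were 1985 to 2988 and 1272 to 3095 CPM. The sums were 0.654 to 1.75 and 0.855 to 3.47 CPM for microglia, 5.46 to 10.1 and 3.86 to 6.24 for endothelial cells, 15.1 to 56.0 and 33.2 to 156 for fibroblasts and pericytes, and 99.98 to 122.7 and 99.4 to 187 for ependymal cells. Their part in the result was not tested.

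Relative to the control of the same label, the mitosis genes lay on opposite sides of 0 on the dated labels. Both hairpins were below the control on 30 August and above it on 3 September in 46 of 46 genes, against 9.44% of all genes. That count is no separate result, since it follows from the places of the dated controls given above. Among the undated libraries both hairpins were above the control in 43 genes, against 37.2% of all genes, and the exceptions were Cdc25b, Pttg1 and Cenpa. The summed level with sh900 was 1.33, 0.279 and 4.68 times that of the control (undated, 30 August, 3 September), and with sh902 it was 1.52, 0.328 and 6.43 times. A hairpin group was apart from the controls without overlap in 0 of 46 genes for both hairpins at once, against 6.41% of all genes. The places of the dated controls fix this count too.

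**Figure D3:**
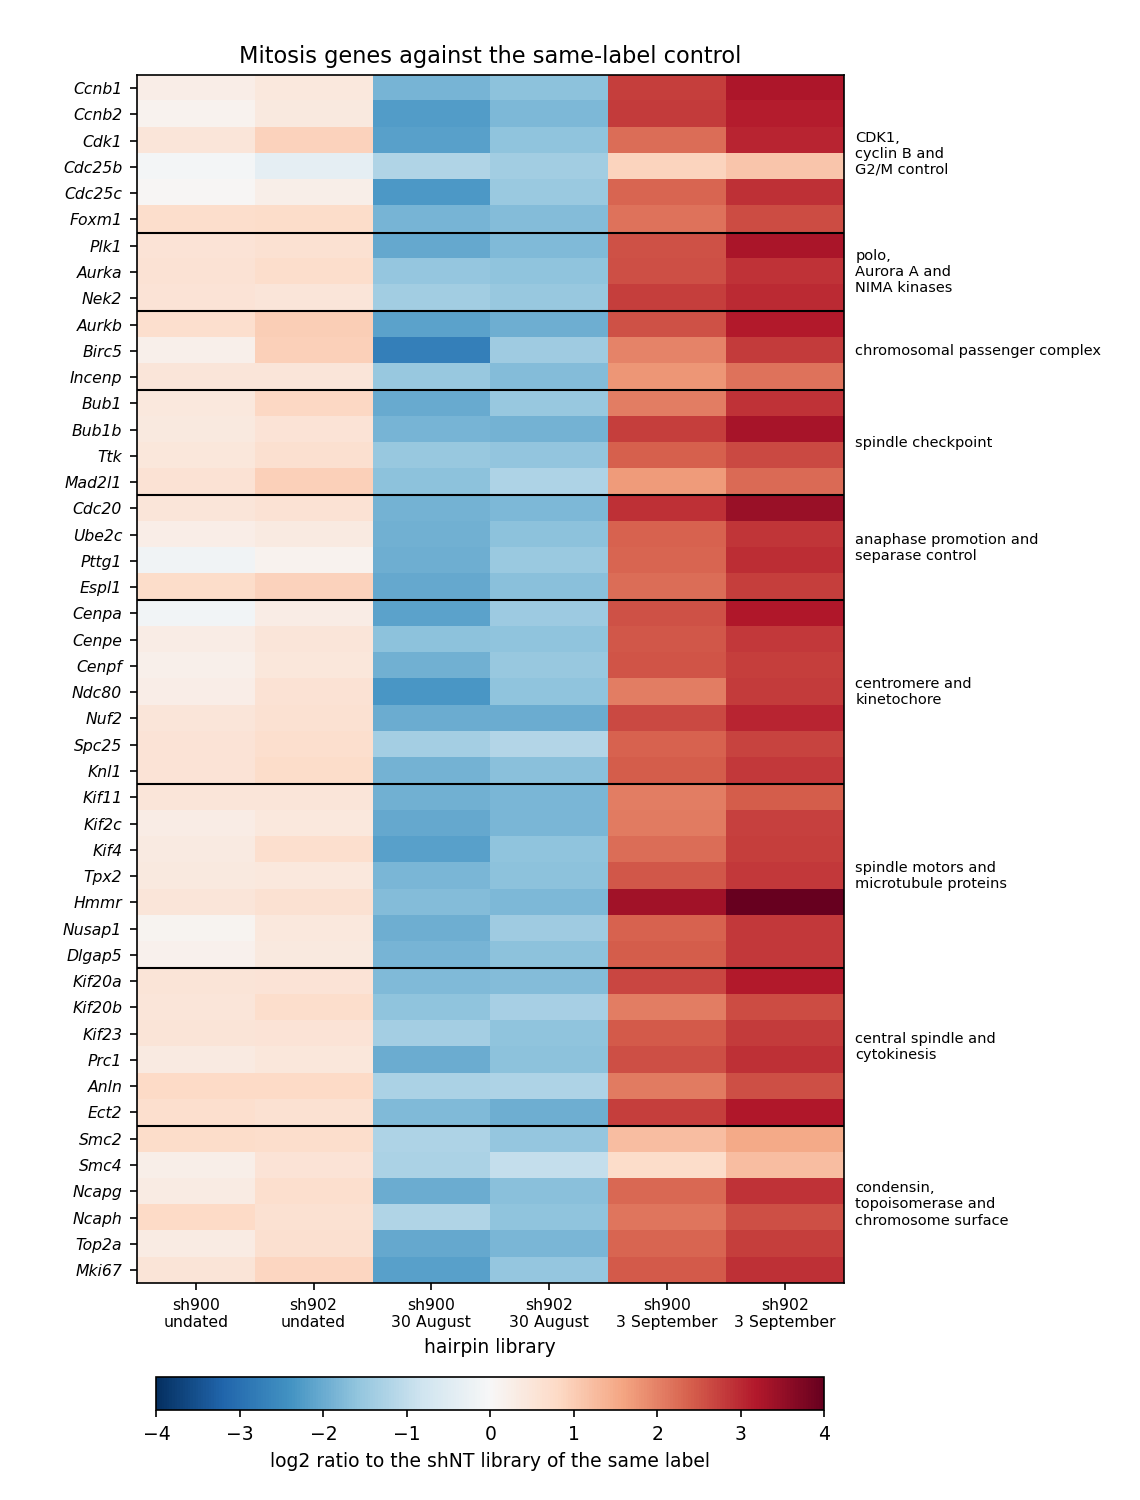
Log2 ratio of each hairpin library to the shNT library of the same label for 46 mitosis genes, grouped by function. The 2 columns of 30 August are negative and those of 3 September positive in all 46 rows, while the undated columns run from -0.36 (Cdc25b, sh902) to 0.97 (Aurkb, sh902).

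Genes of CDK1, cyclin B and G2/M control start mitosis. Cdk1 (ENSMUSG00000019942, chromosome 10, 69335146 to 69352938), the kinase that drives entry into mitosis, had control levels of 48.5, 152 and 10.3 CPM, in the order undated, 30 August and 3 September that is kept below. With sh900 it stood at 68.1, 34.0 and 48.6 CPM, and with sh902 at 92.4, 49.8 and 84.6. The hairpin libraries spanned 34.0 to 92.4 CPM, inside the controls' range. Ccnb1 (ENSMUSG00000041431, chromosome 13, 100778650 to 100786570), the cyclin B1 partner of that kinase, stood at 89.8, 244 and 13.2 CPM in the controls, 108, 67.5 and 89.8 with sh900 and 120.3, 78.1 and 124.7 with sh902. Ccnb2, the other B-type cyclin, went the same way, at 27.8, 78.2 and 3.89 CPM in the controls, 30.4, 16.7 and 27.3 with sh900 and 36.1, 22.3 and 34.8 with sh902.

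Foxm1 (ENSMUSG00000001517, chromosome 6, 128362967 to 128376146), a transcription factor of G2/M genes, stood at 35.04, 106.5 and 8.85 CPM in the controls, 56.8, 29.1 and 40.05 with sh900 and 58.2, 32.2 and 54.8 with sh902. It again had its extremes in the dated controls. The CDC25 phosphatases remove the inhibiting phosphates from CDK1. Cdc25c had the lowest level of the class, at 11.9, 26.9 and 1.91 CPM in the controls, 12.2, 5.39 and 9.90 with sh900 and 13.9, 9.57 and 15.1 with sh902. Cdc25b (ENSMUSG00000027330, chromosome 2, 131186949 to 131198497) varied least of all 46 genes, at 47.6, 54.6 and 20.4 CPM in the controls, 44.8, 23.4 and 38.1 with sh900 and 37.0, 20.8 and 43.9 with sh902. Its log2 range over 9 libraries was 1.42, and both hairpin libraries of 30 August lay just above the lowest control.

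Among the mitotic kinases, Plk1 (ENSMUSG00000030867, chromosome 7, 122159439 to 122169873), which acts from centrosome maturation to cytokinesis, stood at 41.8, 131.6 and 6.07 CPM in the controls. With sh900 the values were 60.8, 31.6 and 35.8 CPM and with sh902 63.5, 38.4 and 59.4. Nek2, a kinase of centrosome separation, stood at 22.4, 61.6 and 3.82 CPM in the controls, 32.5, 23.3 and 26.6 with sh900 and 31.7, 21.4 and 30.4 with sh902. Its 6 hairpin libraries spanned only 0.60 on the log2 scale, against 3.99 over the controls.

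The chromosomal passenger complex corrects faulty attachments of chromosomes and joins in cytokinesis. Incenp, its scaffold, stood at 41.7, 113.8 and 11.9 CPM in the controls, 58.9, 39.6 and 40.8 with sh900 and 58.0, 34.3 and 54.4 with sh902. Birc5 (ENSMUSG00000017716, chromosome 11, 117849251 to 117855743), the gene of survivin, stood at 18.6, 60.6 and 4.31 CPM in the controls, 21.4, 8.95 and 17.4 with sh900 and 35.7, 22.4 and 30.7 with sh902. It had the widest range over the hairpin libraries of all 46 genes, 1.99 on the log2 scale, with sh902 above sh900 at each label.

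Spindle checkpoint proteins delay anaphase until chromosomes are attached. Bub1b, the gene of BubR1 and the highest of the class, stood at 60.8, 172 and 8.55 CPM in the controls, 79.7, 47.5 and 58.4 with sh900 and 89.4, 45.9 and 85.5 with sh902. Ttk, the checkpoint kinase MPS1 and the lowest of the class, stood at 18.3, 45.1 and 4.20 CPM in the controls, 24.9, 15.7 and 22.2 with sh900 and 28.8, 15.0 and 26.3 with sh902. In both genes the dated controls were the outermost libraries and the hairpins were close to each other on 30 August.

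Anaphase is set off by Cdc20 (ENSMUSG00000006398, chromosome 4, 118432901 to 118437352), which activates the anaphase-promoting complex and whose promoter above holds a CHR match between 2 CCAAT boxes. It stood at 63.5, 206 and 8.39 CPM in the controls, 89.8, 55.1 and 64.1 with sh900 and 95.7, 59.6 and 91.98 with sh902. Per kilobase of exon it had the highest mean level of the 46 genes, 43.7 CPM, followed by Mki67 at 37.9 and Top2a at 32.5. Pttg1, the gene of securin, which holds separase inactive, was the lowest of the class in CPM, at 21.7, 48.0 and 3.05 in the controls, 19.6, 12.4 and 15.7 with sh900 and 23.9, 16.9 and 24.4 with sh902. It was 1 of the 3 genes in which an undated hairpin library did not exceed its control.

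Kinetochores join chromosomes to the spindle. Cenpf, a large outer kinetochore protein, stood at 140.5, 346 and 26.4 CPM in the controls, 160.5, 90.8 and 150.4 with sh900 and 194, 122 and 178 with sh902. Ndc80, a microtubule-binding subunit, stood at 17.7, 47.9 and 3.82 CPM in the controls, 21.3, 9.47 and 16.1 with sh900 and 26.3, 15.7 and 27.1 with sh902. As in Cdk1, the dated controls were the outermost libraries.

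Among spindle motors and microtubule proteins, Tpx2, a spindle assembly factor that activates Aurora A, stood at 92.2, 238 and 16.6 CPM in the controls, 122, 66.7 and 92.7 with sh900 and 124, 76.9 and 119.5 with sh902. Dlgap5, a kinetochore fibre protein, stood at 32.8, 87.6 and 5.69 CPM in the controls, 36.5, 23.9 and 30.8 with sh900 and 43.2, 28.2 and 40.5 with sh902. Hmmr (ENSMUSG00000020330, chromosome 11, 40701395 to 40733422), a hyaluronan receptor that also binds spindle microtubules, had the widest range of all 46 genes, 4.84 on the log2 scale. It stood at 49.2, 145 and 5.00 CPM in the controls, 69.1, 43.4 and 52.3 with sh900 and 74.6, 41.5 and 80.5 with sh902.

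Cytokinesis follows at the central spindle. Prc1, which bundles its microtubules, stood at 90.7, 261 and 15.4 CPM in the controls, 116.5, 66.0 and 92.2 with sh900 and 125, 83.3 and 116.7 with sh902. Kif23, a motor of the centralspindlin complex, stood at 30.3, 81.9 and 5.34 CPM in the controls, 43.7, 31.97 and 29.6 with sh900 and 44.2, 26.7 and 37.8 with sh902. Here sh902 was below sh900 on 30 August.

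The last class holds proteins of the chromosome itself. Mki67 (ENSMUSG00000031004, chromosome 7, 135689784 to 135716361), the Ki-67 coat protein of mitotic chromosomes, stood at 291, 868.5 and 60.1 CPM in the controls, 413, 194 and 326 with sh900 and 523, 299 and 455 with sh902. Top2a (ENSMUSG00000020914, chromosome 11, 98992943 to 99024189), which untangles DNA, stood at 249.5, 678 and 50.6 CPM in the controls, 316, 164 and 256 with sh900 and 387, 192 and 344 with sh902. These were the 2 genes with the most counts, and both followed the common arrangement. The condensin subunit gene Ncapg did so at a lower level, with 31.9, 87.4 and 6.30 CPM in the controls, 39.9, 22.1 and 31.1 with sh900 and 51.0, 27.5 and 46.8 with sh902.

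The core condensin ATPase genes spread less. Smc2 (ENSMUSG00000028312, chromosome 4, 52439243 to 52488260) stood at 75.0, 216 and 37.96 CPM in the controls, 125, 92.1 and 89.6 with sh900 and 122, 73.9 and 109.4 with sh902. Smc4 (ENSMUSG00000034349, chromosome 3, 69004738 to 69034623) stood at 95.4, 176 and 47.9 CPM in the controls, 112, 74.03 and 78.9 with sh900 and 139, 91.7 and 112.5 with sh902. Their log2 ranges over 9 libraries, 2.503 and 1.878, were with that of Cdc25b the smallest of the 46, and all 3 stood high in the 3 September control relative to the other mitosis genes. Relative to the median mitosis gene of the library, Cdc25b was at 1.36 (log2) in that control, 0.19 in the undated one and -1.09 in that of 30 August, and at -0.82 to -0.08 in the hairpin libraries. Such relative levels separated the 6 hairpin libraries from the 3 controls in 0 of 46 genes. The count was also 0 with the other mitosis genes as the reference. Over all genes tested the share was 0.347%, against 6.41% by log2 CPM alone. The median mitosis gene was subtracted from all those genes too, which puts its swing over the controls into them. The 0.347% is thus no measure of what to expect for the 46.

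Tested over the 3 groups, the mitosis genes did not pass as changed with either hairpin. edgeR's quasi-likelihood test with Benjamini-Hochberg adjustment called 0 of 46 with sh900, with sh902, for the mean of both or between them, and 0% of all genes in each of these contrasts. At an unadjusted p under 0.05 the count was again 0 of 46 in each, against 14.7%, 15.8%, 16% and 14.4% of all genes. The median log2 fold change of the 46 was -0.38 with sh900, -0.07 with sh902 and -0.22 for the mean, and the all-genes medians lay between -0.03 and -0.01. The members with the smallest p for the mean were Cdc25b at -0.24 ± 0.36 (SE, edgeR adjusted p = 0.758), Pttg1 at -0.38 ± 0.62 (adjusted p = 0.777) and Ccnb2 at -0.40 ± 0.68 (adjusted p = 0.787). Without the 30 August control these 3 turned to 0.04, 0.59 and 0.82, and the median for the mean of both hairpins became 0.95.

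Other fits of the 4 contrasts to all 9 libraries were compared with this. DESeq2 on the same design called 0 of 46, while it called 4.47%, 4.82%, 4.29% and 5.88% of all genes in the 4 contrasts. When date label entered the model as a replicate block, edgeR called 0 of 46, against 8.85%, 10.5%, 11.7% and 4.22% of all genes, and the members' median for the mean of both hairpins was 0.09. Two-sided exact permutation of log2 CPM, 6 hairpin against 3 control libraries over 84 splits, gave p = 0.583 for Mki67, 0.655 for Top2a, 0.583 for Ccnb1, 0.56 for Cdk1, 0.583 for Foxm1 and 0.619 for Plk1. The controls held both the highest and the lowest library of every mitosis gene. A comparison of hairpin and control means therefore had little room to pass. These p-values and the counts of 0 against the controls are no separate support for an absence of change.

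A second fit asked for the hairpin effect at each label. It took the sh900 and sh902 library of a label as a pair and set it against the 1 control of that label, with 3 residual degrees of freedom over 9 libraries. The spread of a single control could not be measured and was assumed to be that between the paired hairpins. The median log2 CPM of the 46 genes had an SD of 0.232 within these pairs and of 1.18 within the 3 treatment groups, where labels differ too. The 1.18 came mostly from the controls, whose medians were 5.38, 6.86 and 3.00 (undated, 30 August, 3 September). They were 5.83, 4.97 and 5.33 with sh900 and 5.93, 5.21 and 5.84 with sh902. If control libraries vary more than the pairs, the p-values of this fit are too small, so its calls describe these libraries and depend on that assumption. On 30 August the median log2 fold change of the 46 was -1.76, from -2.04 (Aurkb, the Aurora kinase of the passenger complex) to -1.09 (Smc4). All 46 had an unadjusted p under 0.05, against 11.7% of all genes, but edgeR called 0 (0% of all genes), with a smallest adjusted p of 0.105. DESeq2 called 45 of 46, all lower, against 2.64% of all genes called lower.

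On 3 September the median was 2.64, from 0.998 (Smc4) to 3.73 (Hmmr). All 46 had an unadjusted p under 0.05, against 11.6% of all genes. edgeR called 13 of 46 higher and 0 lower, against 0.165% of all genes called higher and 0% called lower, and DESeq2 45 higher, against 4.32%. The 13 were Nek2, Hmmr, Ect2, Cdc20, Aurka, Kif20a, Nuf2, Cenpe, Ccnb1, Tpx2, Bub1b, Prc1 and Kif23. Hmmr stood at 3.73 ± 0.37 (SE, edgeR adjusted p = 0.0498) and Ccnb1 at 3.02 ± 0.33 (adjusted p = 0.0498), while Mki67 at 2.70 ± 0.41 had an adjusted p of 0.0609. Calls this close to the threshold moved with the library set. They rose without the undated control and fell to 0 without any 1 of the other libraries that could be left out. Among the undated libraries the median was 0.53 and edgeR called 0 of 46 (0% of all genes). Of the 46, 6 had an unadjusted p under 0.05 there, against 16.7% of all genes.

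**Figure D4:**
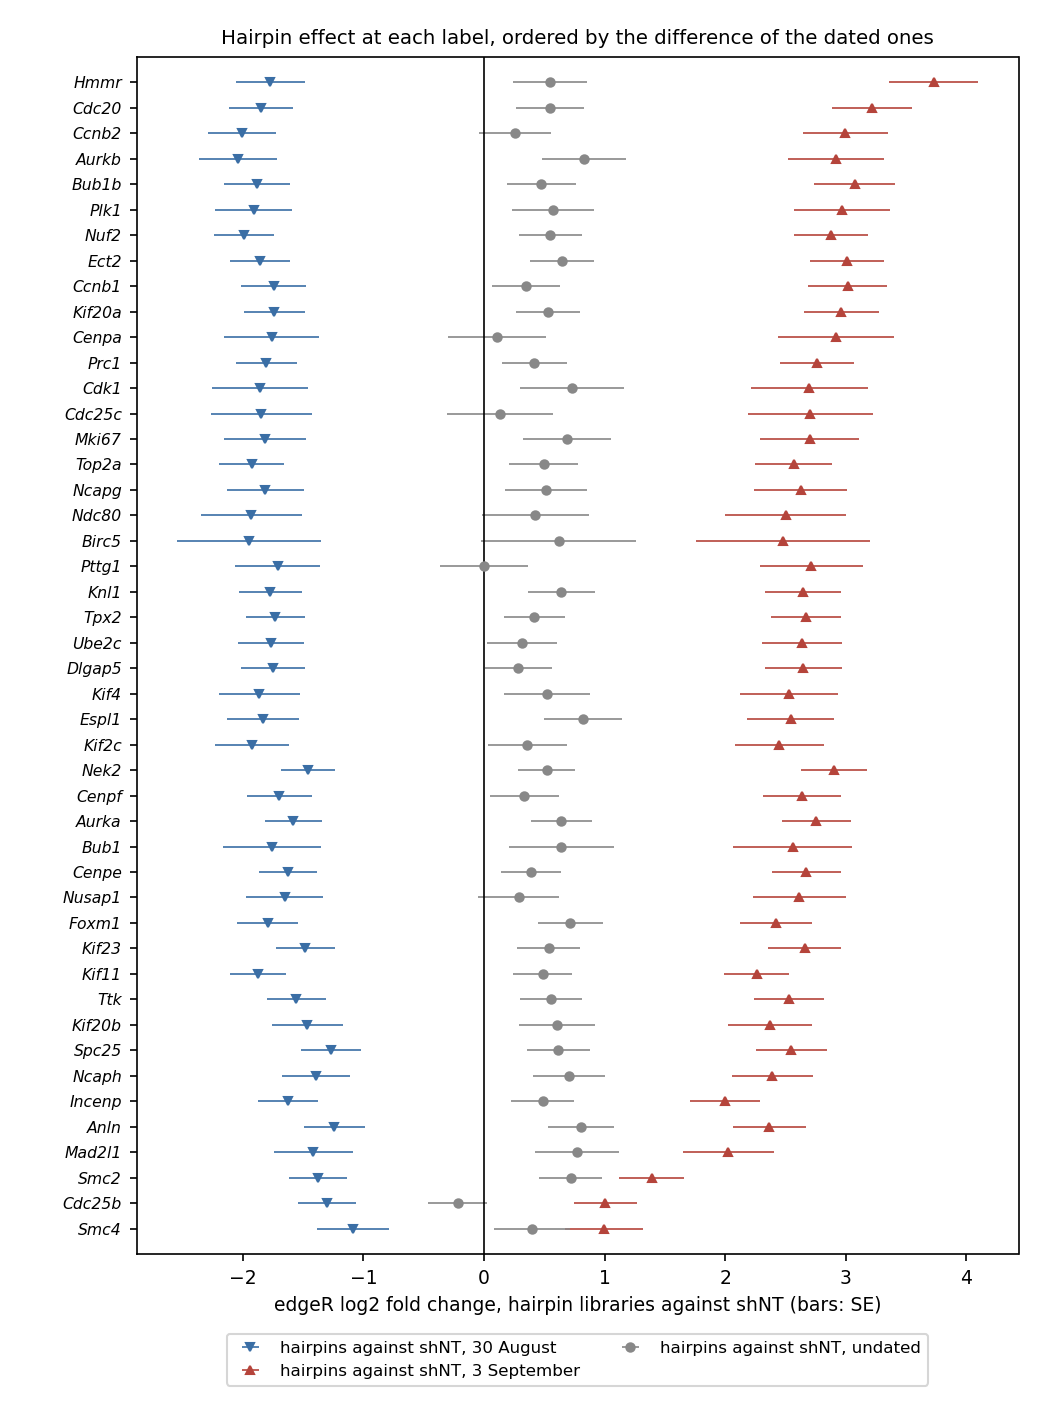
Log2 fold change of the hairpin libraries against shNT at each date label for 46 mitosis genes (edgeR, bars are SE), ordered by the difference between 3 September and 30 August. The 30 August values (median -1.76) are all below 0 and the 3 September values (median 2.64) all above it, where Smc4, Cdc25b and Smc2 are the closest to 0.

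The difference between the hairpin effects of the dated labels was computed in the same fit. It rests on 1 control per label, the highest and the lowest library of every mitosis gene, so its direction follows from the levels given above and its calls carry the same assumption. The effect on 3 September minus that on 30 August had a median of 4.4 over the 46 genes, from 2.09 (Smc4) to 5.50 (Hmmr), and a median of -0.05 over all genes. edgeR called 44 of 46 higher on 3 September and 0 lower, against 1.37% of all genes called higher, 0.017% lower and 1.39% in either direction. An unadjusted p under 0.05 was found for 46 of 46, against 8% of all genes. The 44 are 95.7% of the mitosis genes and 18% of the 244 genes called. The exceptions were Smc4 at 2.09 ± 0.44 (SE, edgeR adjusted p = 0.124) and Birc5 at 4.43 ± 0.95 (adjusted p = 0.128), the gene whose paired hairpin libraries were furthest apart.

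Within the difference, Hmmr led with 5.50 ± 0.46 (SE, edgeR adjusted p = 0.0130), and Cdc20 (5.06) and Ccnb2 (5.00) followed. Mki67 was at 4.52 ± 0.53 (adjusted p = 0.0209), Cdk1 at 4.56 ± 0.63 (adjusted p = 0.0314) and Plk1 at 4.88 ± 0.51 (adjusted p = 0.0164). Ccnb1 (4.76), Top2a (4.49) and Foxm1 (4.22) each had an adjusted p of 0.0130. The smallest called differences were those of Cdc25b, at 2.31 ± 0.36 (adjusted p = 0.0419), and Smc2, at 2.77 ± 0.37 (adjusted p = 0.0269). Every functional class had all its genes called except the passenger complex (2 of 3) and the condensin class (5 of 6). DESeq2 called 46 of 46, against 3.39% of all genes. Without the sh902 library of 3 September edgeR called 0 of 46 and 0 of all genes, and the adjusted p was 0.0653 for Hmmr and 0.0808 for Mki67. Without any 1 of the other libraries that could be left out most of the 46 were still called. Over these fits the median difference of the 46 lay between 4.18 and 4.67. The median difference was 4.42 over the 27 genes with CHR letters in the promoter window and 4.32 over the 11 without, among the latter Ccnb1 and Cdc25b.

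Other lists of cell division genes were counted in the same way. Of 76 other mitosis genes, 52 (68.4%) were called higher in the difference, with a median of 3.67, and 63 had all hairpin libraries between the dated controls. Ckap2l, a spindle pole protein gene (4.59 ± 0.33, SE, edgeR adjusted p = 0.0130), Cdca3 (4.88 ± 0.42) and Cep55, of the abscission machinery (5.12 ± 0.45), had the smallest adjusted p. Of 45 DNA replication genes, 22 (48.9%) were called higher, with a median of 3.18, and 44 had the hairpins between the dated controls. Mcm3, a subunit of the replicative helicase, stood at 35.9, 165 and 9.61 CPM in the controls, 100.8, 51.3 and 51.7 with sh900 and 116, 48.1 and 79.0 with sh902. Its difference was 4.50 ± 0.46 (SE, adjusted p = 0.0164).

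The machinery around mitosis was counted as well. Of 18 genes of MuvB, B-Myb, pocket proteins and E2F factors, 3 were called higher in the difference: Mybl2, the gene of B-Myb (4.25 ± 0.59, SE, edgeR adjusted p = 0.0312), and the late repressors E2f7 (4.64 ± 0.56) and E2f8 (4.25 ± 0.51). Of 17 genes for subunits and partners of the anaphase-promoting complex, which is present through most of the cycle, 1 was called, its inhibitor gene Fbxo5 (3.77 ± 0.61), and the list median was 0.34. Anapc1, the largest subunit, lay outside the arrangement of the mitosis genes, at 258.5, 387 and 265 CPM in the controls, 274, 305 and 245 with sh900 and 334, 342 and 315 with sh902. Of 10 cohesin genes 1 was called, the acetyltransferase gene Esco2 (4.57 ± 0.45), with a list median of 0.25.

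Of 7 inhibitors of cyclin-dependent kinases, 0 were called in the difference and 0 had the hairpins between the dated controls, although 2 had both hairpins below the control on 30 August and above it on 3 September. These, named after their values were seen, were Cdkn2c, at 75.1, 119 and 47.3 CPM in the controls, 57.2, 47.3 and 55.6 with sh900 and 90.1, 79.8 and 90.2 with sh902, and Cdkn2d, at 19.6, 26.6 and 13.96 CPM in the controls and 12.9 to 26.4 CPM with a hairpin. Cdkn1a, the gene of p21, was above the control with both hairpins at each label. It stood at 219.9, 418 and 90.3 CPM in the controls, 659, 938 and 344 with sh900 and 592, 942 and 501 with sh902. Cdkn1b, the gene of p27, stood at 221.5, 146.9 and 198 CPM in the controls, 127, 119 and 160.3 with sh900 and 146, 131 and 176 with sh902, below the control at each label.

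Mitosis genes were mostly higher with sh902 than with sh900. On 3 September sh902 was above sh900 in 46 of 46 genes (49.7% of all genes), among the undated libraries in 38 (50.2%) and on 30 August in 35 (50.4%). At all 3 labels it was above in 33 of 46, against 26.3% of all genes. The exceptions were Cdc25b, Aurka, Nek2, Incenp, Bub1b, Ttk, Kif11, Hmmr, Kif23, Anln, Ect2, Smc2 and Ncaph. All 7 kinetochore genes and all 4 genes of anaphase promotion were among the 33. The undated sh902 library was the highest hairpin library for 31 genes and the sh900 library of 30 August the lowest for 33.

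**Figure D5:**
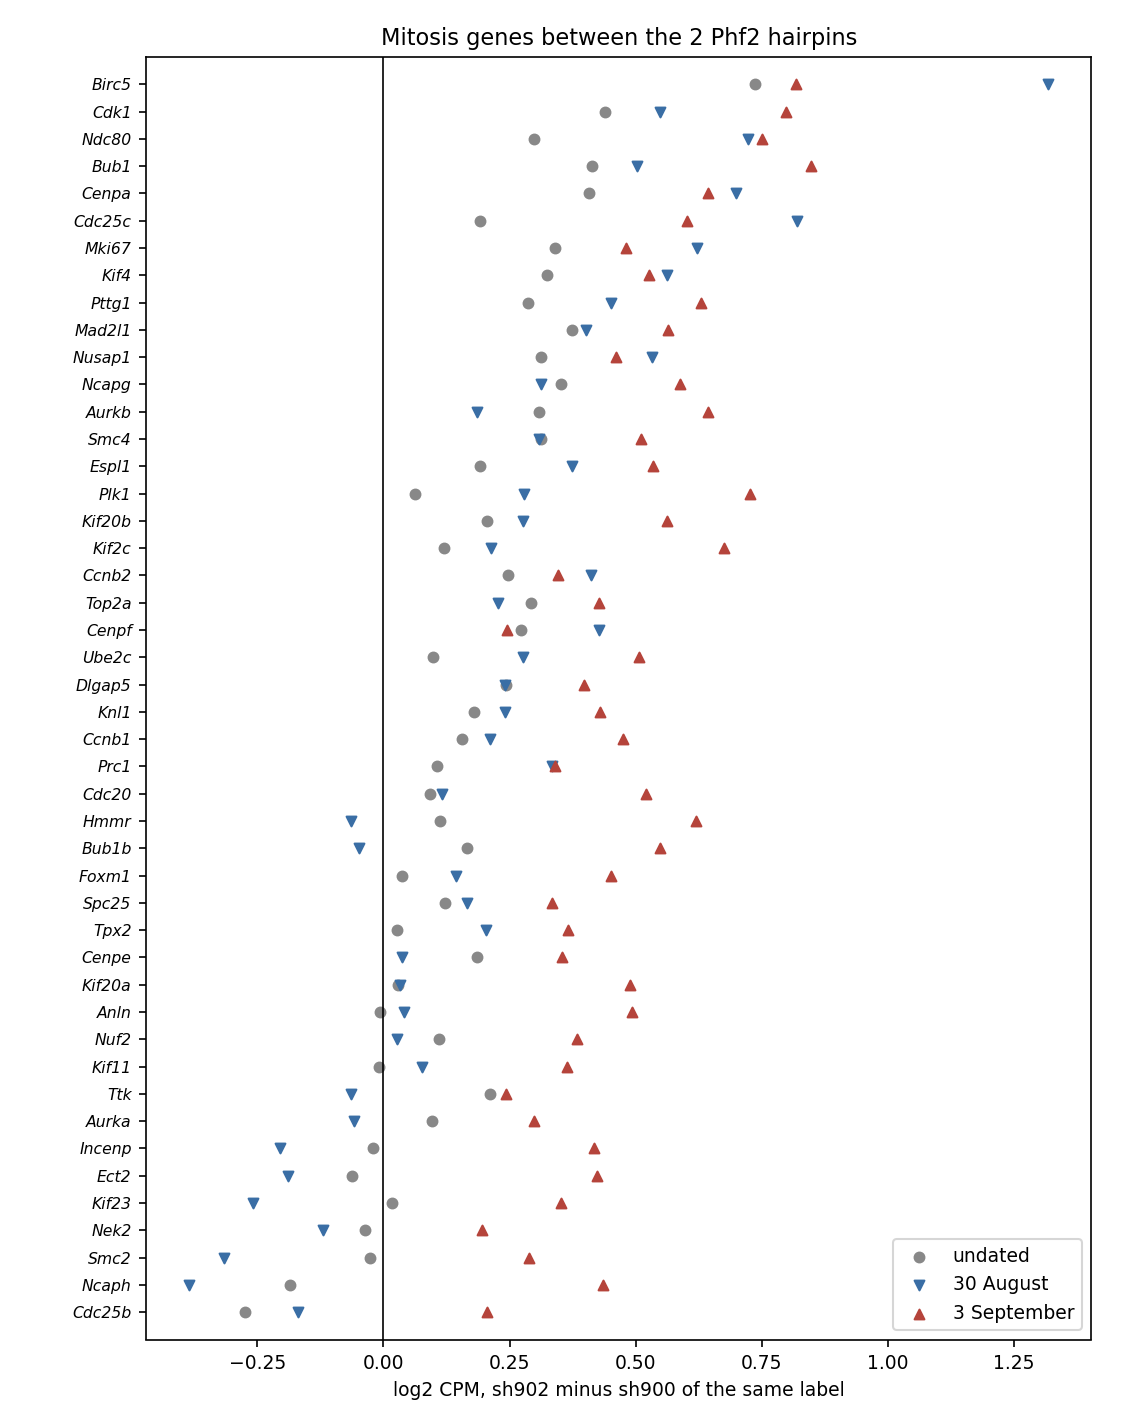
Log2 CPM of sh902 minus sh900 within each date label for 46 mitosis genes, ordered by the mean of the 3 labels. Points of 3 September lie above 0 in all 46 genes and Birc5 leads, while 13 genes, mostly towards the lower end, have at least 1 label below 0.

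In the 3-group fit the median of sh902 against sh900 was 0.28, and the smallest p among the 46 belonged to Birc5 (0.90 ± 0.76, SE, edgeR adjusted p = 0.686), Smc4 (0.37 ± 0.42, adjusted p = 0.774) and Cdk1 (0.59 ± 0.76, adjusted p = 0.813). With the date label as a block and only the 6 hairpin libraries in the fit, an alternative chosen after seeing the data, edgeR called 10 of 46 higher with sh902 and 0 lower, against 6.58% of all genes called higher, 8.95% lower and 15.5% in either direction. They were Birc5, Cdk1, Cenpa, Bub1, Mad2l1, Kif4, Ndc80, Nusap1, Mki67 and Ncapg. Birc5 had a log2 fold change of 0.96 ± 0.16 (SE, adjusted p = 0.0154) and the others lay between 0.42 and 0.60. The count was 1 without the undated pair, 5 without the 30 August pair and 7 without that of 3 September. The shares of all genes called without a pair are not given here, so these counts show only that the 10 calls depended on the pairs used. In the fit with all 3 pairs 17 of 45 DNA replication genes were called higher. Phf2 itself was higher with sh902 than with sh900 at each label, at 25.01 against 19.8 CPM, 17.0 against 14.9 and 28.1 against 25.5.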

How the data were processed

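Levels were taken from 1 deposited table of estimated counts per gene in 9 libraries. Per the submitters' processing notes, the tools were FastQC for read quality and cutadapt, STAR 2.5.0a, Trimmomatic 0.36 and RSEM, with the GRCm38 build. The annotation release is not given in the sources used here. Per the labels' protocols libraries were random-primed, and strand is not stated. RSEM divides reads shared by similar or overlapping genes by a model, so paralogs and overlapping genes are uncertain. The deposited estimated counts were whole numbers, so rounding changed 0 values. Symbols and coordinates came from GENCODE M21 on GRCm38 (54165 identifiers matched, 67 did not). The 46 genes, the other lists and the rule for the genes named with values (6 set genes, the highest and lowest of each class, the extremes of range and of p) were chosen with earlier results of these data known.

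Samples were grouped by treatment label. Tests were run in R 4.3.3 with the quasi-likelihood F test of edgeR 4.0.16 (robust dispersions, TMM factors, default expression filter by group, Benjamini-Hochberg adjustment over 17602 genes, calls at an adjusted p under 0.05), over 3 groups without a block (6 residual degrees of freedom), or over 6 cells of hairpin or control by date label (3). SE is the size of the log2 fold change over the root of its F value. Log2 CPM used a prior count of 2. Scripts were tested on simulated data. The dates in the titles pair the dated libraries: their deviations from group means correlated at 0.402 to 0.627 (30 August) and 0.456 to 0.645 (3 September), at 0.0799 to 0.399 between the undated libraries, which share only a missing date, and at -0.661 to 0.302 between labels. Replicates were checked for duplicates (lowest chi-square per degree of freedom 52.6). Alternatives were DESeq2 1.42.0, RLE factors, library size alone, no filter, the replicate block, only the groups compared, a fit to dated libraries only and fits that leave out 1 library each.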

Additional observations from a re-analysis of the deposited data

Results flagged for a closer look

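The hairpin effect on mitosis genes lay on opposite sides of 0 at the dated labels. edgeR's quasi-likelihood test of 3 September minus 30 August called 44 of the 46 genes, with a median difference of 4.4 on the log2 scale. The same test called 1.39% of all genes, 52 of 76 other mitosis genes and 22 of 45 DNA replication genes. Among the genes named with values it gave 4.52 for Mki67, 4.49 for Top2a, 4.76 for Ccnb1, 4.56 for Cdk1, 4.22 for Foxm1, 4.88 for Plk1, 5.50 for Hmmr, 2.31 for Cdc25b and 2.77 for Smc2. Each had both hairpin libraries below the control on 30 August and above it on 3 September, since those controls were its highest and lowest library. Each side of this difference rests on 1 control library whose spread was taken from the hairpin pairs, so the calls hold only as far as that assumption does. The SD of the median log2 CPM was 0.232 within these pairs, against 1.18 within treatment groups, mostly from the controls. The calls fell to 0 without the sh902 library of 3 September.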

How the results depend on the processing

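Over all alternatives to the counts of mitosis genes called and to their medians, 209 left the value within the margin set for it and 23 moved it. For a count the margin was a fixed ratio, or equality where the main count was 0. For a median it was the SD of the median log2 CPM, 1.18 for the 3-group contrasts and 0.232 for those by label. A change of sign could stay within it, as for the mean of both hairpins, whose median became 0.95 without the 30 August control. With DESeq2 the called count was 45 on 30 August and 45 on 3 September, with no filter on low counts 46 and 45, and on 3 September it was 23 with RLE factors and 25 with library size alone. For sh902 against sh900 the replicate block on only the groups compared gave 10 calls, and 1, 5 and 7 without the undated, 30 August and 3 September pair. The replicate block on all 9 libraries changed no call of a mitosis gene (median 0.09 for the mean of both hairpins, and 0 called). With 1 library left out, calls ran from 0 to 44 in the difference between labels and from 0 to 29 on 3 September. The median ran from -0.89 to 0.80 with sh900, from 2.41 to 2.85 on 3 September and from 4.18 to 4.67 in the difference. For the mean of both hairpins the sign turned without the 30 August control, with ranges over the fits of -0.56 to 0.036 for Cdc25b, -0.91 to 0.59 for Pttg1 and -0.93 to 0.82 for Ccnb2. In each case the cause was not tested. A control could not be left out of the fit by label where the contrast needs it. With no filter the median of all genes moved to -0.30 for the mean of both hairpins, over 38220 genes. The lowest level of a mitosis gene was 1.91 CPM (Cdc25c) in the 3 September control, a library of 25766537 counts.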
